A study of Mus musculus with 7 samples.

Results

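The genes described here were *Stat3*, *Stat4*, and *Stat6*, the Janus kinase genes *Jak2* and *Tyk2*, and the inhibitor genes *Socs1*, *Socs3*, *Pias1*, and *Ptpn2*. They were chosen by their symbols among the 55367 genes of the deposited count table, by a rule that uses no measured value, although earlier results of these data were known when the set was chosen. All 9 were found, and all 9 were among the 12623 genes that averaged 5 or more counts per library, the minimum used for testing. The study exposed CD8+ T cells to small extracellular vesicles (sEV), membrane particles that cells release, taken from the microenvironment of leukemic or healthy spleens. LME-sEVs came from spleens of Eμ-*TCL1* mice, in which a transgene expressed in B cells leads to a disease resembling chronic lymphocytic leukemia (CLL), and HCME-sEVs came from spleens of healthy mice. As whole spleens were used, vesicles of other spleen cells are also present in both preparations. CD8+ T cells were sorted by flow cytometry from spleens of healthy Foxp3 YFP/cre mice, whose regulatory T cells carry a fluorescent label. The culture methods of the study instead describe CD8+ T cells obtained by negative selection, and name these mice for the isolation of regulatory T cells. There were 4 libraries of cells given HCME-sEVs and 3 of cells given LME-sEVs, and every culture lasted 48 hours. These sizes and the assignment of libraries follow the labels, while a legend in the study states the sizes in reverse. The labels give 100 µg/mL of sEVs for all cultures, whereas the methods describe the physiologic amount of each kind of spleen. The labels give no age, and the methods describe young adult mice. By the culture methods, both groups were also stimulated through CD3 and CD28 and received IL2, a cytokine that itself signals through JAK1, JAK3, and STAT5. No source used here says whether the libraries of a group came from separate mice or separate sEV preparations, so p-values measure only the spread between these libraries.

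In JAK-STAT signaling, a cytokine brings its receptor chains together, and the Janus kinases bound to them phosphorylate STAT proteins, which then pair, enter the nucleus, and bind DNA. STAT3 is classically activated by IL6, IL10, IL21, and IL27, STAT4 by IL12, and STAT6 by IL4 and IL13. Suppressor of cytokine signaling (SOCS) genes are induced by STATs and their proteins block receptors and kinases, PIAS1 inhibits STATs in the nucleus, and the phosphatase PTPN2 removes phosphate from JAKs and STATs. In CD8+ T cells, STAT3 takes part in memory formation and STAT4 in effector differentiation. Transcript levels as measured here say nothing of STAT phosphorylation, the step that switches these proteins on.

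STAT dimers recognize DNA of the form TTCNNNGAA, STAT6 in addition a form with 1 more base between TTC and GAA, and GGGCGG is the core of the GC box, a common promoter element. The 250 bases before the RefSeq transcription start (GRCm38.p6) were searched for these letters, GGGCGG on both strands, and the other forms, which read the same on both strands, once. Of the 9 genes, 8 matched the promoter table by symbol, and *Ptpn2* did not. TTCNNNGAA was found in 1 of the 8 (*Socs3*) and in 7.02% of all 32851 promoter windows, the longer form in 0 of the 8 and in 5.85%, and GGGCGG in 6 of the 8 and in 32.7%. The windows of *Stat3* and *Socs1* are printed because these were the members that passed the test below, that of *Socs3* for its match, and that of *Bcl6*, a gene described with the STAT3 targets, because it holds 3 matches. Sequences run 5′ to 3′ on the strand of the gene, with GGGCGG in capitals for *Stat3* and *Socs1* and TTCNNNGAA in capitals for *Socs3* and *Bcl6*. The *Stat3* window is chr11:100939541-100939790, the *Socs1* window chr16:10785537-10785786, the *Socs3* window chr11:117969367-117969616, and the *Bcl6* window chr16:23981284-23981533, all on the minus strand. The *Bcl6* window precedes the second of its RefSeq starts. Both the *Bcl6* window and the *Socs3* window lie within the annotated span of their gene.
Stat3: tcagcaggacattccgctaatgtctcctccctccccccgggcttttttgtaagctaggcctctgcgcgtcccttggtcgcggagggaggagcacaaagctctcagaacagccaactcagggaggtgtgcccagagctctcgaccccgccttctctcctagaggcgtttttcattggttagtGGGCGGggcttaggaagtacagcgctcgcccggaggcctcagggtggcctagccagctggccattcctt
Socs1: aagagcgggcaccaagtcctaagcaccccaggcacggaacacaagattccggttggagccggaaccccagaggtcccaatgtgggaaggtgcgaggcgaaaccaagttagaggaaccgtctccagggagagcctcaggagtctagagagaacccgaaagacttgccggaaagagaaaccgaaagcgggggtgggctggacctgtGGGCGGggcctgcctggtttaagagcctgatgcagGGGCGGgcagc
Socs3: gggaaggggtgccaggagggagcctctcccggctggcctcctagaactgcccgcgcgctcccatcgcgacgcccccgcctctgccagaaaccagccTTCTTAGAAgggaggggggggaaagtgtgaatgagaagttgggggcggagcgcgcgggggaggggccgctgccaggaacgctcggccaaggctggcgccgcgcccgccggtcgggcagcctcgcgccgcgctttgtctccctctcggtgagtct
Bcl6: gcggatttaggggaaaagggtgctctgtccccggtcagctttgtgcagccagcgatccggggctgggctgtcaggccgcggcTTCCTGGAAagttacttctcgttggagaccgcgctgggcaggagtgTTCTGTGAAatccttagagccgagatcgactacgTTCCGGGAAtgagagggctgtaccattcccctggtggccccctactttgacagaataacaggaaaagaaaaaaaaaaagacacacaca
The *Stat3* window held 1 GGGCGG and the *Socs1* window 2, and neither held either STAT form. In *Socs3* the match TTCTTAGAA lay 154 to 146 bases before the start, and in *Bcl6* the matches TTCCTGGAA, TTCTGTGAA, and TTCCGGGAA began 168, 122, and 88 bases before it. The window before the other RefSeq start of *Bcl6* held the match TTCTCAGAA. Among the other pathway genes listed below, TTCNNNGAA was found in 6 of the 62 that matched by symbol. A match describes these letters in this window and is not evidence of binding.

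RNA was read by 3′ sequencing with unique molecular identifiers, so a count stands for the 3′ end of 1 captured transcript, and levels of different genes can be set side by side without a correction for length. Totals were between 3689831 and 5030522 counts per library, and a floor of 3 counts was worth 0.580 to 0.804 CPM, a unit that scales counts to the library total, here after TMM. CD8 T-cell markers (*Cd8a*, *Cd8b1*, *Cd3d*, *Cd3e*, *Cd3g*) summed to between 1265 and 1378 CPM with HCME-sEVs and between 1475 and 1686 CPM with LME-sEVs. Of these 5, 5 had a positive log2 fold change, against 6497 of all 12623 tested genes. The 2 that passed the test below, *Cd3e* and *Cd3g*, were both higher, against 3.75% of all genes. *Cd4* and *Foxp3* together stayed between 0 and 0.580 CPM, and 5 B-cell markers between 4.52 and 7.83 CPM. The sum of 5 myeloid markers was between 0.798 and 2.64 CPM with HCME-sEVs and between 3.09 and 3.75 CPM with LME-sEVs. All 5 were too rare to be tested. *Itgam* had 0, 0, 0, and 1 counts with HCME-sEVs and 6, 8, and 6 counts with LME-sEVs. The groups overlapped in *Lyz2*, *Csf1r*, *Adgre1*, and *Cd14*. The sum of 5 erythroid and platelet markers was between 63.2 and 164 CPM and between 138 and 182 CPM. Of 4 tested, 3 were higher in the same test (*Hba-a1*, *Pf4*, *Ppbp*), against 3.75% of all genes. The sum of 5 basophil and mast-cell markers was between 5.28 and 30.3 CPM and between 19.7 and 37.6 CPM. Of 4 tested, 2 were higher (*Mcpt8*, *Prg2*), against the same 3.75%. The part of these other cell types in the results below was not tested, and a change in the cells present cannot be told apart from a change in transcripts per cell.

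Among the 9 genes, *Stat3* was higher and *Socs1* was lower after LME-sEVs than after HCME-sEVs, and the other 7 did not pass the test. This makes 2 of 9 genes at a false discovery rate (FDR, adjusted by Benjamini and Hochberg over all genes) under 0.05 with edgeR's quasi-likelihood test, against 8.96% of all tested genes (1131 of 12623). In one direction, 3.75% of all genes were higher and 5.21% were lower with LME-sEVs. When libraries were scaled by their size only, all genes split into 612 higher and 465 lower in place of 473 higher and 658 lower. Fold changes compare LME-sEVs with HCME-sEVs. A log2 fold change above 1 or below -1, which the study requires in addition, was reached by 1.28% of all genes and by 0 of the 9. The groups did not overlap in 2 of the 9 genes and in 20.3% of all genes. *Stat3* was the 1 gene higher in all LME-sEV libraries, against 9.49% of all genes, and *Socs1* the 1 gene lower in all of them, against 10.8%. The median log2 fold change was 0.06 for the 9 genes and 0.01 for all genes.

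**Figure D1:**
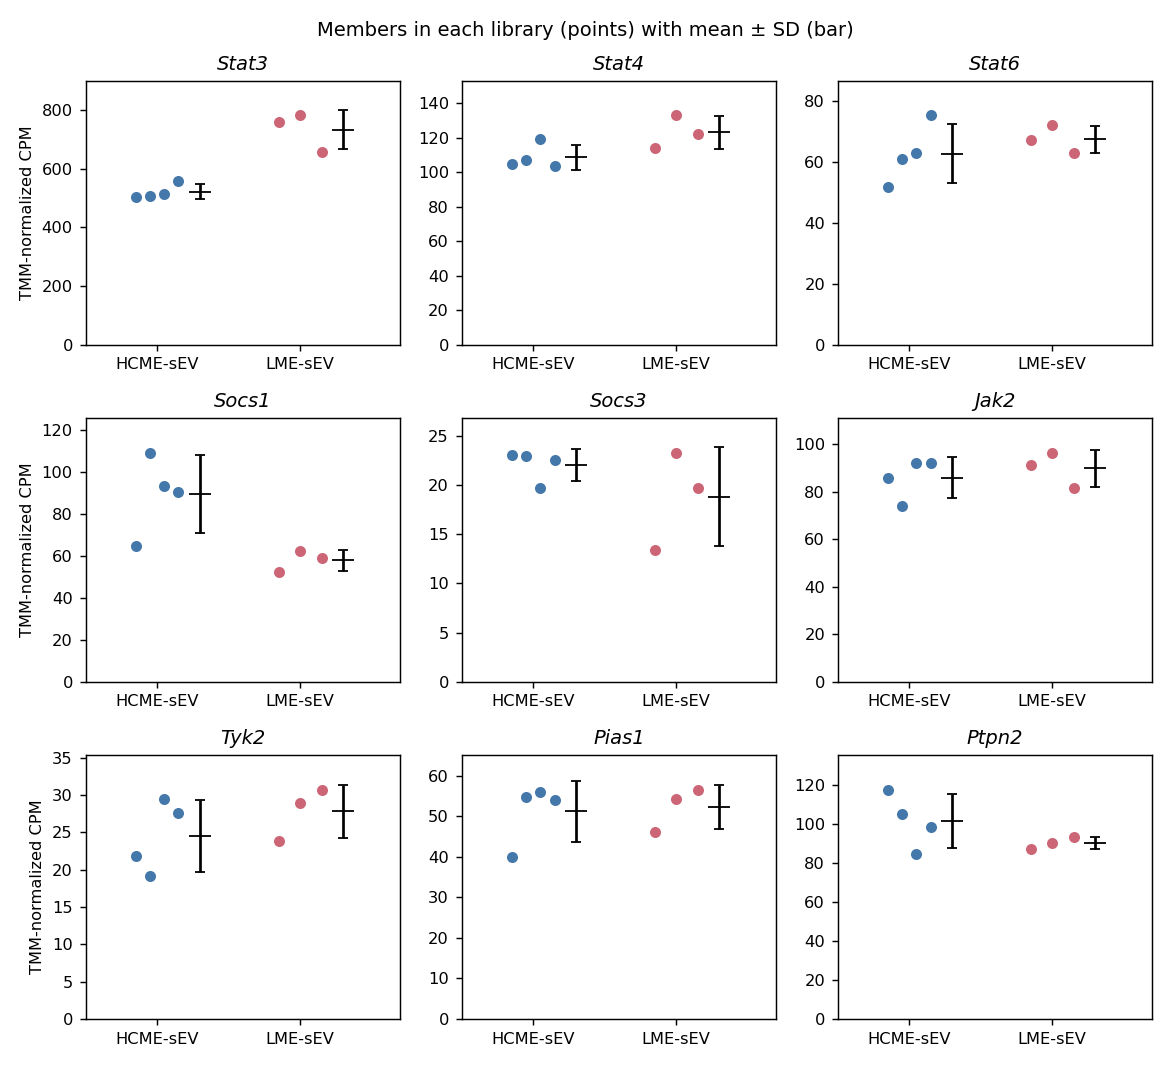
TMM-normalized CPM (vertical axis, from 0) of the 9 genes in 4 HCME-sEV and 3 LME-sEV libraries, with a point for each library and a bar for the mean ± SD. In *Stat3* the 3 LME-sEV points sit above all HCME-sEV points, in *Socs1* they sit below them, and in the other 7 genes the groups overlap.

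*Stat3* encodes the transcription factor downstream of IL6-type cytokines and IL10, and it lies at chr11:100885098-100939540 on the minus strand (GRCm38). Its level was 505, 509, 515, and 560 CPM in HCME-sEV libraries 1 to 4 and 761, 782, and 658 CPM in LME-sEV libraries 1 to 3. All LME-sEV libraries were above all HCME-sEV libraries, with LME-sEV 3 nearest to them. The mean was 522 ± 25.5 CPM for HCME-sEVs and 734 ± 66.7 CPM for LME-sEVs, a 1.40-fold difference (here and throughout, ± gives the SD, with n = 4 for HCME-sEVs and n = 3 for LME-sEVs). The log2 fold change was 0.49 (SE 0.077, 95% confidence interval 0.33 to 0.65, edgeR FDR = 6.40e-04). These levels rest on between 1936 and 3493 counts per library, and by its mean CPM *Stat3* ranked 193 among all tested genes. The last 72 bases of the *Stat3* exons overlap *Stat5a* on the opposite strand, and whether counting used the strand is not given in the sources used here. *Stat5a* held between 203 and 288 counts per library and had a log2 fold change of -0.06 (edgeR FDR = 0.768).

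*Stat4*, the mediator of IL12 responses, was the second most abundant of the 9 transcripts and lies at chr1:51987148-52107189 on the plus strand. Its level was 104, 107, 119, and 103 CPM with HCME-sEVs and 114, 133, and 122 CPM with LME-sEVs. HCME-sEV 3, at 119, was above LME-sEV 1, at 114, so that the groups overlapped. Means were 108 ± 7.26 and 123 ± 9.46 CPM, with a log2 fold change of 0.18 (SE 0.086, 95% confidence interval 0.0043 to 0.36). The interval lies just above 0, and *Stat4* did not pass after adjustment over all genes (edgeR FDR = 0.208). A gene model that shares 1033 exon bases with *Stat4* on the same strand, *Gm28177*, had 0 counts in every library.

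*Stat6*, the mediator of IL4 and IL13 responses, lies at chr10:127642986-127660957 on the plus strand. It was measured at 51.9, 61.1, 63.0, and 75.4 CPM with HCME-sEVs and at 67.3, 72.1, and 63.2 CPM with LME-sEVs. The highest library was HCME-sEV 4, and the 3 LME-sEV libraries lay within the HCME-sEV range. Means were 62.9 ± 9.68 and 67.5 ± 4.47 CPM, and the log2 fold change was 0.10 (SE 0.11, 95% confidence interval -0.13 to 0.33, edgeR FDR = 0.645). The 3′ ends of *Stat6* and *Nab2* overlap by 40 bases on opposite strands, and *Nab2* held between 85 and 135 counts.

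The 3 genes were then set side by side, each as a percentage of their summed counts in a library, a measure that does not depend on the scaling of libraries. *Stat3* made up 76.4%, 75.2%, 73.9%, and 75.8% of these counts with HCME-sEVs and 80.8%, 79.2%, and 78.0% with LME-sEVs. All LME-sEV libraries were above all HCME-sEV libraries, and the mean share was 75.3% ± 1.08 and 79.3% ± 1.38. The share of *Stat4* was 15.7% ± 1.28 and 13.3% ± 1.20, with overlapping groups. That of *Stat6* was 9.03% ± 0.968 and 7.31% ± 0.177, and all LME-sEV libraries were below all HCME-sEV libraries. As the shares add up to the whole, lower shares of *Stat4* and *Stat6* go with the higher share of *Stat3*, and no test was made of the shares.

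**Figure D2:**
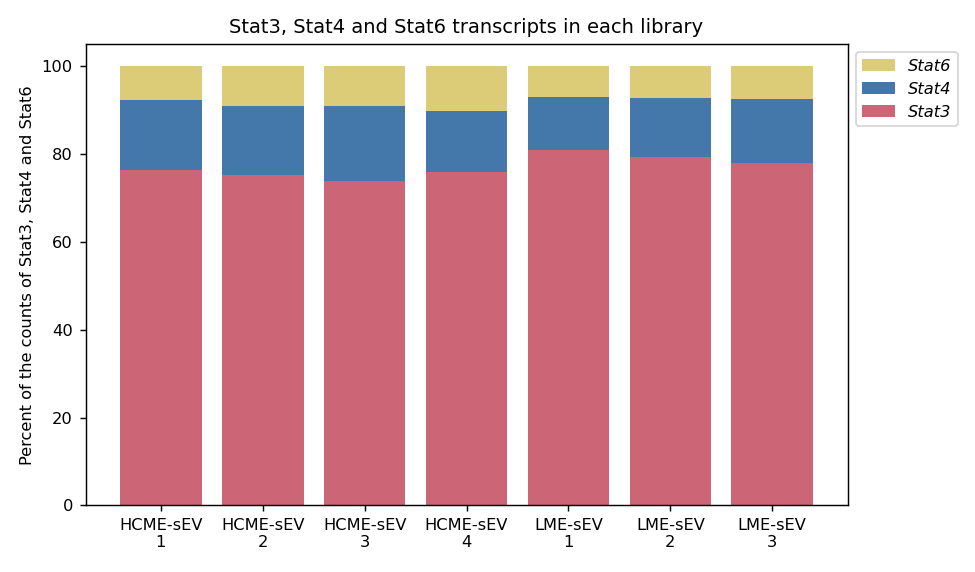
Percentage of the summed counts of *Stat3*, *Stat4*, and *Stat6* (vertical axis) taken by each gene in each library. *Stat3* takes between 73.9% and 76.4% in the 4 HCME-sEV libraries and between 78.0% and 80.8% in the 3 LME-sEV libraries.

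Neither Janus kinase gene among the members passed the test. *Jak2*, whose product acts at receptors of the IL6, IL12, and IL23 families, lies at chr19:29251828-29313080 on the plus strand. Its level was 86.0, 74.0, 92.0, and 92.1 CPM with HCME-sEVs and 91.4, 96.5, and 81.6 CPM with LME-sEVs, with overlapping groups. The log2 fold change was 0.06 (SE 0.097, 95% confidence interval -0.14 to 0.26, edgeR FDR = 0.773). *Tyk2*, the partner of JAK2 at the IL12 receptor and of JAK1 at the IL10 and type I interferon receptors, lies at chr9:21104068-21131243 on the minus strand. It was lower than *Jak2* in every library, at 21.9, 19.2, 29.5, and 27.6 CPM with HCME-sEVs and 23.9, 28.9, and 30.7 CPM with LME-sEVs. The groups overlapped, and the log2 fold change was 0.19 (SE 0.15, 95% confidence interval -0.12 to 0.50, edgeR FDR = 0.485). These intervals still allow a rise of *Tyk2* by up to 0.50 on the log2 scale.

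*Socs1*, whose protein inhibits JAK1, JAK2, and TYK2 and restrains interferon and common γ-chain cytokine signals, lies at chr16:10782240-10785536 on the minus strand. Its level was 64.6, 109, 93.6, and 90.7 CPM with HCME-sEVs and 52.6, 62.3, and 58.9 CPM with LME-sEVs. All LME-sEV libraries were below all HCME-sEV libraries, but HCME-sEV 1 lay well under the others of its group and just above LME-sEV 2. The means were 89.6 ± 18.6 and 57.9 ± 4.93 CPM, so that the LME-sEV level was 0.649 of the HCME-sEV level. The log2 fold change was -0.62 (SE 0.13, 95% confidence interval -0.90 to -0.35, edgeR FDR = 0.00529).

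*Socs3*, a STAT3-induced gene whose protein binds gp130 and inhibits JAKs, lies at chr11:117966079-117970047 on the minus strand and was the least abundant of the 9 genes. It was measured at 23.1, 23.0, 19.7, and 22.5 CPM with HCME-sEVs and at 13.4, 23.3, and 19.7 CPM with LME-sEVs. Only LME-sEV 1 lay clearly below the HCME-sEV range, and LME-sEV 2 was above it. Means were 22.1 ± 1.61 and 18.8 ± 5.01 CPM, and the log2 fold change was -0.22 (SE 0.16, 95% confidence interval -0.55 to 0.12, edgeR FDR = 0.461). Whether the changes of *Socs1* and *Socs3* differ was examined by their ratio below.

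*Pias1*, encoding a SUMO ligase that inhibits STAT proteins, lies at chr9:62878368-62987924 on the minus strand. It was at 40.1, 54.8, 56.1, and 54.1 CPM with HCME-sEVs and 46.1, 54.2, and 56.6 CPM with LME-sEVs. The groups overlapped and HCME-sEV 1 was the lowest library, with a log2 fold change of 0.04 (SE 0.12, 95% confidence interval -0.21 to 0.28, edgeR FDR = 0.893). *Ptpn2*, encoding a phosphatase that acts on JAK1, JAK3, and several STATs, lies at chr18:67665511-67724595 on the minus strand. Its level was 117, 105, 84.5, and 98.4 CPM with HCME-sEVs and 87.2, 90.3, and 93.1 CPM with LME-sEVs. The LME-sEV libraries lay within the wider HCME-sEV range, with a log2 fold change of -0.17 (SE 0.099, 95% confidence interval -0.38 to 0.039, edgeR FDR = 0.335). None of the 9 genes had a near-identical copy of its 3′ end elsewhere among annotated transcripts.

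The order of the levels was similar in both conditions apart from *Socs1*. With HCME-sEVs the order of mean CPM was *Stat3*, *Stat4*, *Ptpn2*, *Socs1*, *Jak2*, *Stat6*, *Pias1*, *Tyk2*, and *Socs3*. Only the neighbors *Stat3* and *Stat4* and the neighbors *Pias1* and *Tyk2* had ranges over libraries that did not overlap. With LME-sEVs *Socs1* stood after *Jak2* and *Stat6*, at rank 6 in place of 4, and the other genes kept their order among themselves. There, *Ptpn2* overlapped with *Jak2* and *Socs1* overlapped with *Pias1*, and the other neighbors did not overlap. The coefficient of variation over libraries was lowest for *Stat3* with HCME-sEVs (4.88%) and highest for *Socs1* (20.7%), and with LME-sEVs it was highest for *Socs3* (26.6%).

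Ratios between pairs of genes in the same library, taken as log2 of counts with 0.5 added, were compared by a two-sided exact permutation test, whose smallest possible p here is 0.0286. The log2 ratio of *Socs3* to *Stat3* was -4.45, -4.46, -4.70, and -4.63 with HCME-sEVs and -5.81, -5.06, and -5.05 with LME-sEVs. Every LME-sEV library was below every HCME-sEV library, and the means differed by -0.75 (exact p = 0.0286, 0.143 after adjustment over the 5 ratios). The ratio of *Stat3* to *Stat4* differed by 0.31 (exact p = 0.0857, adjusted 0.143) and that of *Stat3* to *Stat6* by 0.37 (exact p = 0.0571, adjusted 0.143). As even the smallest possible p became 0.143 after adjustment here, this test could hardly pass for a single ratio. It therefore cannot decide whether the rise of *Stat3* differs from the changes of the other STAT genes. The ratio of *Stat3* to *Stat6* was higher in all 3 LME-sEV libraries than in all HCME-sEV libraries. The ratio of *Socs3* to *Socs1* differed by 0.34 (exact p = 0.229, adjusted 0.286), so that the lower *Socs1* and the uncalled *Socs3* were not shown to differ from each other. That of *Jak2* to *Tyk2* differed by -0.13 (exact p = 0.486).

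The transcripts nearest to each STAT gene in pattern were sought by the root mean square distance of centered log2 CPM over the 7 libraries, among 9694 genes that averaged 20 or more counts. For *Stat3* these were *H2az2*, a histone H2A.Z gene (distance 0.032), *Phka2*, a phosphorylase kinase subunit (0.064), and *Rnpepl1* (0.068). *H2az2* rose from 223 ± 13.9 to 313 ± 19.5 CPM, with the same log2 fold change as *Stat3* of 0.49 (edgeR FDR = 6.40e-04). For *Stat4* they were *Sri* (0.031), *Cenpa* (0.034), and *Rpl27* (0.035), the last with near-identical pseudogene copies. For *Stat6* they were *Add3* (0.050), *Pnpla7* (0.052), and *Itgav* (0.060). The distances describe these 7 libraries, which all genes share, and carry no test.

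The other genes of the pathway were taken from 10 lists of STATs, kinases, inhibitors, receptors, ligands, and known targets, 81 genes in all. Of 63 tested, 7 were higher and 12 were lower with LME-sEVs at edgeR's FDR under 0.05, which is 30.2% against the 8.96% of all genes, with a median log2 fold change of -0.03. Without LME-sEV 2, 12 of the list genes passed, as did 3.09% of all genes. The lists were drawn up with earlier results of these data known, so the shares are a description. Among the 3 other STAT genes listed, *Stat5b*, a mediator of IL2 signals, rose from 97.8 ± 5.64 to 119 ± 6.72 CPM, with a log2 fold change of 0.29 (edgeR FDR = 0.0355). Its groups did not overlap, but the call was lost when any of HCME-sEV 1, 2, or 3 or LME-sEV 2 or 3 was left out (edgeR FDR between 0.0511 and 0.178). Both other Janus kinases were uncalled, *Jak1* at 0.11 (edgeR FDR = 0.454) and *Jak3* at 0.35 on the log2 scale (edgeR FDR = 0.144). *Jak1* was the more abundant, at 717 ± 44.1 and 773 ± 64.1 CPM, with *Raver2* overlapping it on the opposite strand.

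Of 14 other inhibitor genes, 2 passed the test (14.3%, against 8.96% of all genes), and both were lower. *Cish*, a SOCS family gene induced by STAT5 that restrains T-cell receptor and IL2 signals, was at 238, 170, 144, and 212 CPM with HCME-sEVs and 108, 90.0, and 93.1 CPM with LME-sEVs. The groups were apart, and the log2 fold change was -0.98 (SE 0.13, edgeR FDR = 1.47e-04), with *Gm17040* and *Gm17041* overlapping it on the opposite strand. *Socs2*, also a STAT5-induced gene, was at 119 ± 10.9 and 74.8 ± 17.7 CPM, with a log2 fold change of -0.66 (edgeR FDR = 0.00202). Its value is uncertain because *Gm8000* and *Gm9847* have near-identical 3′ ends. The median over the 14 was -0.04, and the remaining SOCS, PIAS, and phosphatase genes were uncalled.

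**Figure D3:**
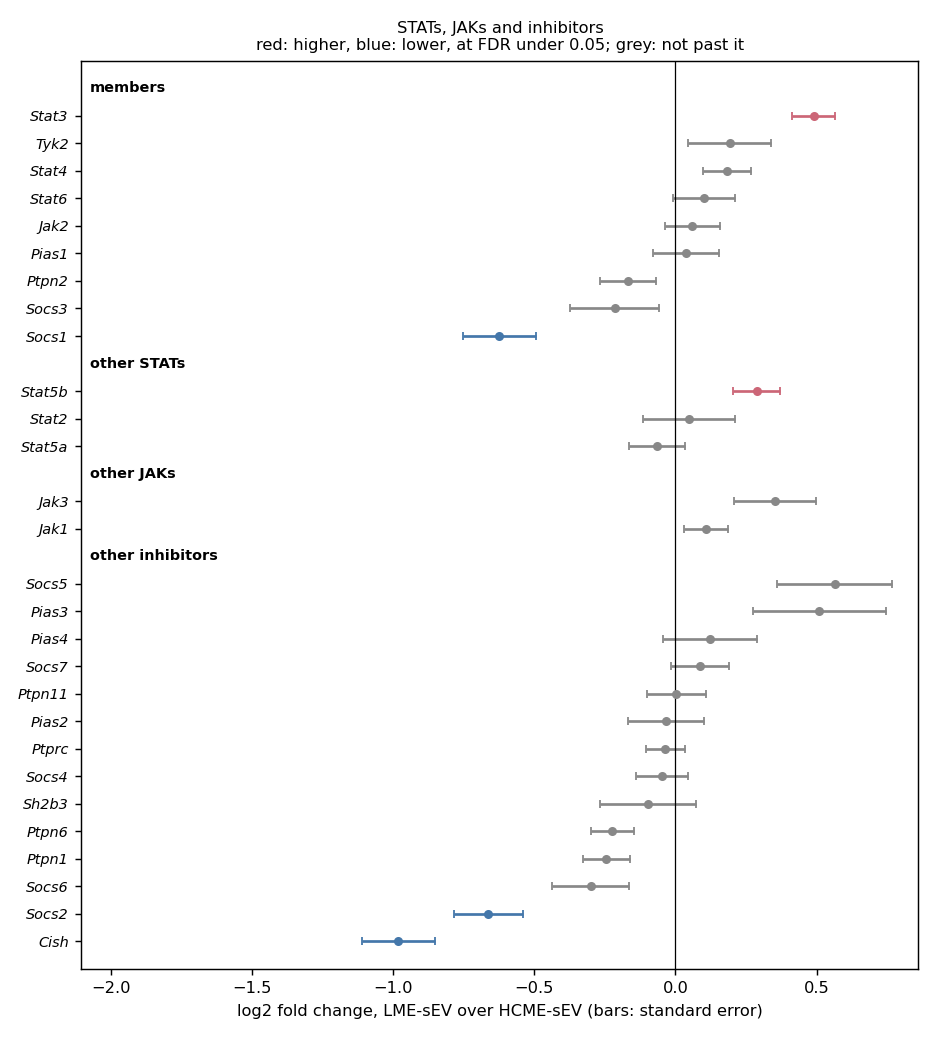
Log2 fold change of LME-sEVs over HCME-sEVs (horizontal axis) with its standard error for the 9 genes (members) and for the other STAT, JAK, and inhibitor genes, red where higher, blue where lower at edgeR's FDR under 0.05, and grey otherwise. *Stat3* at 0.49 and *Stat5b* at 0.29 are red, *Socs1* at -0.62, *Socs2* at -0.66, and *Cish* at -0.98 are blue, and the other points are grey.

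Of the receptor chains, 1 of 6 tested for STAT3, 1 of 4 for STAT4, and 0 of 2 for STAT6 passed, against 8.96% of all genes. *Il10ra*, the chain that binds IL10, was at 26.4, 26.8, 31.6, and 26.7 CPM with HCME-sEVs and 45.9, 57.6, and 52.4 CPM with LME-sEVs. It rose in all LME-sEV libraries beyond the HCME-sEV range, with a log2 fold change of 0.90 (SE 0.11, edgeR FDR = 1.09e-04). *Il12rb1*, the chain shared by the IL12 and IL23 receptors, was at 45.9, 48.2, 44.4, and 48.3 CPM and at 23.6, 30.5, and 39.0 CPM. It fell with a log2 fold change of -0.57 (SE 0.13, edgeR FDR = 0.0102), a call lost without LME-sEV 1 (edgeR FDR = 0.0580) or LME-sEV 2 (edgeR FDR = 0.0649). The signaling chain of the IL12 receptor, *Il12rb2*, was at 223 ± 18.4 and 226 ± 6.69 CPM (edgeR FDR = 0.927), and the chain *Il4ra* at 184 ± 39.8 and 160 ± 9.79 CPM (edgeR FDR = 0.317). The gp130 gene *Il6st* was at 28.8 ± 4.82 and 38.0 ± 5.64 CPM, with a log2 fold change of 0.40 (edgeR FDR = 0.0765). These 3 were chosen after their values were seen. *Il2rg*, the common γ-chain, was the most counted STAT6 receptor gene, at 0.04 (edgeR FDR = 0.854), with *Gm20489* overlapping it on the same strand.

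Of 12 ligand genes, 5 were expressed enough to be tested and 4 passed, 2 higher and 2 lower, against 8.96% of all genes. *Ebi3*, the subunit shared by IL27 and IL35, rose from 10.6 ± 1.24 to 20.2 ± 2.87 CPM, a log2 fold change of 0.93 (edgeR FDR = 0.00135), with *Gm16712* on the opposite strand. *Il23a*, the IL23 subunit, had a log2 fold change of 0.82 (edgeR FDR = 0.0209), but its groups overlapped and without LME-sEV 3 the value was 0.46 (edgeR FDR = 0.263). The call was also lost without HCME-sEV 2 or 4 or LME-sEV 2 (edgeR FDR between 0.0534 and 0.0653). Genes of the other subunits of these cytokines were too rare to be tested. *Il27* had 0 counts in every library, *Il12a* between 0 and 1, and *Il12b* between 1 and 3. The gp130 cytokine *Lif* fell from 11.7 ± 3.45 to 3.02 ± 0.414 CPM, a log2 fold change of -1.95 (SE 0.27, edgeR FDR = 2.31e-04). Its relative *Osm* fell from 20.6 ± 1.56 to 12.9 ± 1.44 CPM, a log2 fold change of -0.68 (edgeR FDR = 0.00709), a call lost without LME-sEV 2 (edgeR FDR = 0.0617). *Il10* was too rare to be tested, with 9, 7, 5, and 4 counts with HCME-sEVs and 0, 3, and 4 counts with LME-sEVs.

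Of 16 tested genes known as STAT3 targets, 3 rose and 2 fell at edgeR's FDR under 0.05, against 3.75% and 5.21% of all genes. The median log2 fold change was -0.08. *Bcl6*, a repressor linked to memory and follicular T cells whose window with 3 TTCNNNGAA matches is printed above, was at 5.76, 11.9, 9.84, and 7.42 CPM with HCME-sEVs and 18.2, 22.4, and 19.7 CPM with LME-sEVs. These groups were apart, and the log2 fold change was 1.22 (SE 0.19, edgeR FDR = 6.62e-04), with *Gm37419* on the opposite strand. *Rora*, a nuclear receptor gene, rose from 20.5 ± 3.73 to 41.3 ± 3.30 CPM, a log2 fold change of 1.01 (edgeR FDR = 1.58e-04). *Prdm1*, which encodes the effector regulator BLIMP1, rose and was at 7.44, 8.33, 10.9, and 12.1 CPM with HCME-sEVs and 16.4, 17.2, and 21.1 CPM with LME-sEVs, a log2 fold change of 0.92 (edgeR FDR = 0.00340). The survival gene *Bcl2* was at 320, 287, 241, and 286 CPM with HCME-sEVs and fell to 216, 176, and 197 CPM, a log2 fold change of -0.53 (edgeR FDR = 0.00154). The kinase gene *Pim1* fell from 537 ± 58.8 to 425 ± 2.59 CPM, a log2 fold change of -0.34 (edgeR FDR = 0.0142). The *Pim1* call was lost without HCME-sEV 2 or any single LME-sEV library (edgeR FDR between 0.0580 and 0.0721). *Rora*, *Bcl2*, and *Pim1* overlap genes on the opposite strand. *Socs3*, itself a STAT3 target, was uncalled, as given above.

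Of 7 tested STAT4 targets, 3 were lower with LME-sEVs at edgeR's FDR under 0.05 and 0 were higher, against 5.21% and 3.75% of all genes. The groups did not overlap in 4 of the 7, against 20.3% of all genes. Of these 4, 2 were lower and 2 were higher, the latter uncalled. *Gadd45g*, a stress-response gene, was at 36.5, 28.3, 22.3, and 21.3 CPM with HCME-sEVs and fell to 11.0, 10.5, and 8.50 CPM, a log2 fold change of -1.45 (SE 0.19, edgeR FDR = 1.47e-04). *Tbx21*, which encodes the effector regulator T-bet, fell from 101 ± 9.75 to 76.0 ± 5.18 CPM, a log2 fold change of -0.41 (edgeR FDR = 0.0101), and this call was lost without LME-sEV 2 (edgeR FDR = 0.0726). *Ifng*, the gene of interferon-γ, was at 572, 542, 582, and 426 CPM with HCME-sEVs and 332, 404, and 473 CPM with LME-sEVs. It fell with a log2 fold change of -0.39 (edgeR FDR = 0.0288), but HCME-sEV 4 lay below LME-sEV 3, and the call was lost without HCME-sEV 2 or 3 or LME-sEV 1 or 2 (edgeR FDR between 0.0526 and 0.177). *Gm49751* overlaps *Ifng* on the same strand. The median over the 7 was -0.04.

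Of 4 tested STAT6 targets, 2 were lower at edgeR's FDR under 0.05, against 5.21% of all genes. The other 2 were uncalled, *Gata3* at 0.08 (edgeR FDR = 0.734) and *Gfi1* at 0.03 on the log2 scale (edgeR FDR = 0.919). *Nfil3*, a transcription factor gene, fell from 27.5 ± 2.33 to 15.1 ± 3.06 CPM, a log2 fold change of -0.86 (edgeR FDR = 0.00128). *Il24* had 20, 8, 4, and 19 counts with HCME-sEVs and 1, 0, and 2 counts with LME-sEVs. It passed the test (edgeR FDR = 0.00399), and the summed rates had a ratio of 0.0713 with a 95% interval for counting error of 0.0142 to 0.220.

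**Figure D4:**
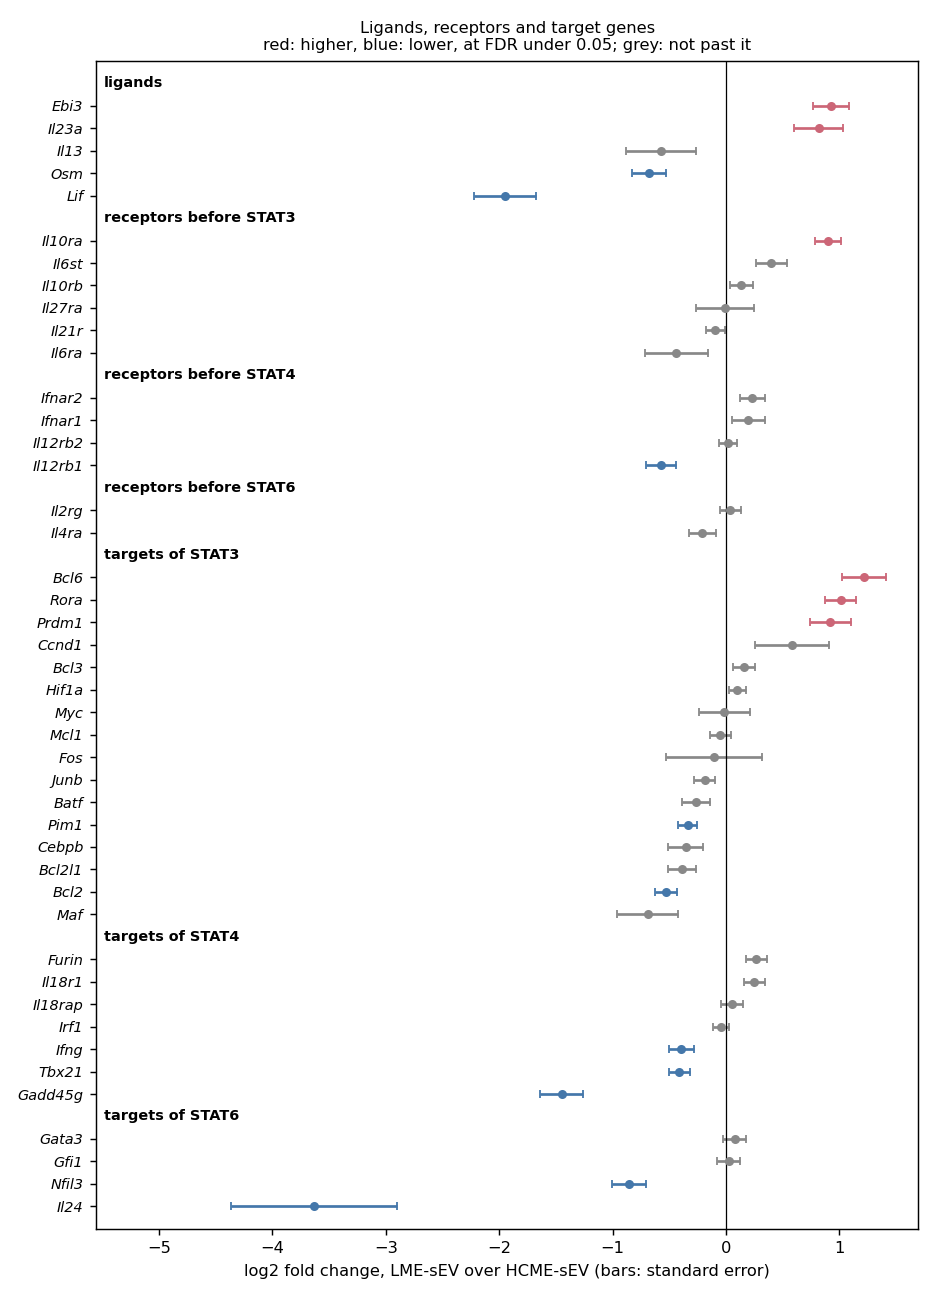
Log2 fold change of LME-sEVs over HCME-sEVs (horizontal axis) with its standard error for the tested ligand, receptor, and target genes, grouped by role, red where higher, blue where lower at edgeR's FDR under 0.05, and grey otherwise. The colored points of STAT4 and STAT6 targets lie below 0, whereas among ligands and STAT3 targets they lie on both sides, and the lowest point, *Il24*, rests on 0 to 2 counts with LME-sEVs.

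The values of the 9 genes were then compared over the processing settings. *Stat3* had log2 fold changes between 0.49 and 0.53 over 9 other settings and between 0.44 and 0.56 when each library was left out in turn, and *Socs1* between -0.63 and -0.58 and between -0.75 and -0.51. Both passed the FDR threshold in all 16, and the other 7 genes in none. Among those 7, single libraries moved the log2 fold change by more. *Socs3* went from -0.22 to -0.04 without LME-sEV 1 and to -0.39 without LME-sEV 2. *Stat6* went from 0.10 to 0.02 without HCME-sEV 1 and to 0.20 without HCME-sEV 4. *Tyk2* ranged from 0.09 without HCME-sEV 2 to 0.29 without LME-sEV 1, *Stat4* from 0.12 to 0.24, and *Ptpn2* from -0.24 to -0.09. *Jak2* ranged from -0.0053 to 0.13 and *Pias1* from -0.06 to 0.12, so that neither had a stable sign.

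**Figure D5:**
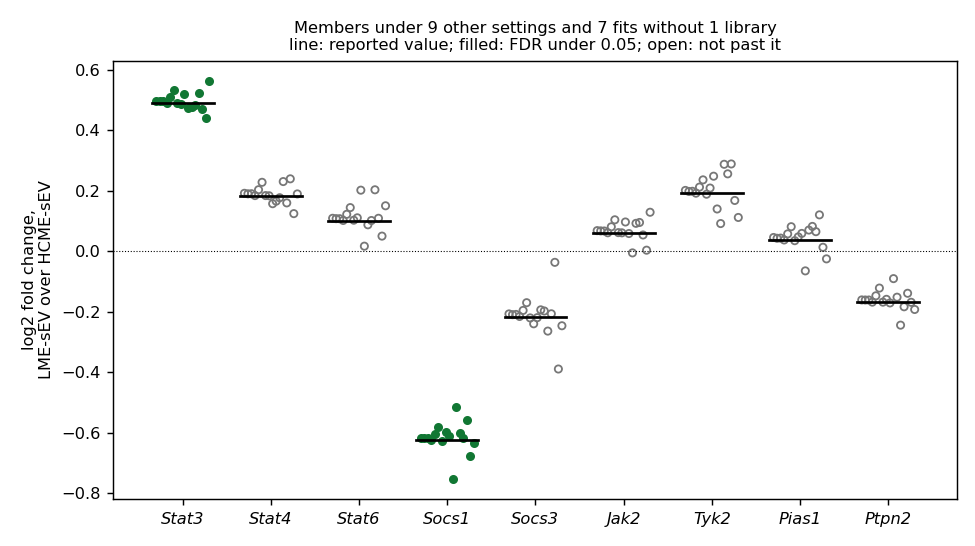
Log2 fold change of LME-sEVs over HCME-sEVs (vertical axis) of the 9 genes under 9 other settings and in 7 fits without 1 library, filled where the FDR was under 0.05, with a line at the reported value. Points of *Stat3* and *Socs1* are filled throughout, at 0.44 to 0.56 and -0.75 to -0.51 in the fits without 1 library, and those of the other 7 genes are open.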

How the data were processed

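RNA of 7 CD8+ T-cell cultures was sequenced from the 3′ end (QuantSeq). The authors trimmed reads with cutadapt 2.10, mapped them with STAR 2.5.3a to GRCm38, collapsed them by UMI with UMI-tools 1.0.0, and deposited counts per gene from featureCounts (Subread 2.0.0), neither normalized nor filtered. Annotation release and strand setting are not given in the sources used here, so overlapping genes may share counts. Genes averaging 5 or more counts were normalized by TMM and tested with edgeR 4.0.16 (glmQLFit, glmQLFTest) in R 4.3.3, with no covariate, and the Benjamini-Hochberg adjustment ran over 12623 genes. The test was first checked on simulated data with planted changes larger than those of *Stat3* and *Socs1*, so that check does not cover effects of their size. Counts of replicates differed by more than sampling noise in all 9 pairs (chi-square per degree of freedom 2.10 to 6.00). SDs are of TMM-normalized CPM. Intervals of counts and the 3-count floor cover counting error only. The genes and lists were chosen with earlier results of these data known. Named genes were the 9, every list gene with an FDR under 0.05, and otherwise the most counted gene of a list. Of the list genes first chosen, 1 is not reported here. Coordinates are from GENCODE vM21, and copies were sought with blast 2.17.0 in the last 300 bases at 95% identity. Alternatives covered the minimum on counts (none, mean of 10, filterByExpr), scaling (DESeq2 size factors, upper quartile, library size), DESeq2 1.42.0, limma-voom (limma 3.58.1), the replicate number as a block, and each library left out. Plots used Python 3.11.15 with matplotlib 3.10.9.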

Additional observations from a re-analysis of the deposited data

Results flagged for a closer look

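In 4 of 35 results examined, 1 HCME-sEV library lay far from the other 3 in Dixon's test, which divides the gap by the whole range, with a ratio above the critical value for 4 libraries. Chance alone gives about 1 in 20, here 1.75. For *Stat3* the ratio was 0.831, with HCME-sEV 4 highest at 560 CPM, toward the LME-sEV level. Without that library the log2 fold change of *Stat3* was 0.52 (edgeR FDR = 0.00130). For *Socs3* the ratio was 0.839, with HCME-sEV 3 lowest at 19.7 CPM, and without it the log2 fold change was -0.26 (edgeR FDR = 0.345). For *Pias1* the ratio was 0.873, with HCME-sEV 1 lowest at 40.1 CPM, and without it the log2 fold change went from 0.04 to -0.06 (edgeR FDR = 0.793). For *Il10ra* the ratio was 0.931, with HCME-sEV 3 highest at 31.6 CPM, and without it the log2 fold change was 0.97 (edgeR FDR = 4.01e-05). The causes were not tested.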

How the results depend on the processing

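Under all 16 alternatives 2 of the 9 genes passed, each time *Stat3* and *Socs1*. Over 30 named genes, 455 of 478 comparisons stayed on their side of the threshold and 23 lost the call. The sign changed in 4 comparisons, all of uncalled genes and without 1 library: *Pias1* without HCME-sEV 1 (-0.06) or LME-sEV 3 (-0.03), and without HCME-sEV 2 *Jak2* (-0.0053) and *Il2rg* (-0.04). Beside the losses without 1 library, *Stat5b* was lost with DESeq2 (FDR = 0.0516) and *Ifng* with library size only (edgeR FDR = 0.0526), and *Il24* could not be tested with a mean of 10 counts or filterByExpr. List genes called ranged from 18 to 25 over settings and from 12 to 21 without 1 library. The share of all genes called moved as well, from 4.43% to 11.5% over settings and from 3.09% to 10.3% without 1 library. All genes called fell from 1131 to 391 without LME-sEV 2, 458 without LME-sEV 3, and 723 without HCME-sEV 2. Whether the replicate numbers pair the libraries was not settled. Correlations were 0.0721, 0.155, and 0.0267 for numbers 1 to 3. That of number 2 was the largest of all pairs, but LME-sEV 1 correlated best with HCME-sEV 3 (0.0803) and LME-sEV 3 with HCME-sEV 2 (0.0670). With the replicate block, 1454 genes (11.5% of all tested) and 25 list genes passed, *Stat3* at 0.52 and *Socs1* at -0.61. The 5 ratios kept their direction with the block (0.36, 0.32, -0.77, 0.34, and -0.16). Without LME-sEV 3, the *Jak2* to *Tyk2* ratio went to 0.014. The difference of the *Socs3* to *Stat3* ratio without LME-sEV 1 was -0.50. With 3 and 4 libraries, the intervals of the 7 uncalled members allow changes of up to 0.55 on the log2 scale, reached by *Socs3*. Those of uncalled list genes allow more, up to 1.26 for the STAT3 target *Ccnd1*.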
